A study of Homo sapiens with 15 samples.

Results

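The 10 genes examined here form the core of the circadian clock. They are the activators ARNTL (BMAL1) and CLOCK, the repressors PER1, PER2, PER3, CRY1 and CRY2, the nuclear receptors NR1D1 (REV-ERBα) and NR1D2 (REV-ERBβ), and the output factor DBP. They were taken by symbol from the expression table, in which all 10 had a row among 17272 genes and all 10 passed the filter on low values. They were measured in LNCaP, a line of human prostate cancer cells that depends on androgens and expresses the androgen receptor. The methods of the study give the numbers of libraries the other way round from the labels, which are followed here. By the labels, cells of 10 libraries had received 1 nM of the synthetic androgen R1881 with the solvent DMSO. Cells of 5 libraries had received 1 nM R1881 together with enzalutamide, which blocks the androgen receptor. The labels call this enzalutamide high, and the methods give 2 µM. All cells had been starved of androgen in charcoal-stripped serum for 2 days and were harvested after 22 h of treatment, so that both groups had received R1881. Library numbers run from 51 to 55 and from 71 to 75 for R1881 and from 81 to 85 for R1881 + enzalutamide. No number series holds both treatments, so that series and treatment cannot be told apart. Each library was harvested at a single time after treatment, and the hour of the day is not known here.

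The circadian clock is a loop of transcription with a period of about a day that runs in most cells. The ARNTL and CLOCK proteins bind together to E-box sequences and raise transcription of the PER, CRY, NR1D and DBP genes. PER and CRY proteins then enter the nucleus and repress ARNTL and CLOCK, while the REV-ERB receptors repress ARNTL through ROR elements, where the ROR receptors activate it. DBP and its relatives activate genes with D-box sequences, and NFIL3 represses them. PER1 is known to respond also to hormones and to cAMP signalling.

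The libraries held 15830745 to 25416052 reads on genes. Values are CPM, reads of a gene scaled to the size of the library, as deposited. Fold changes with their standard errors (SE) were taken from log2(CPM + 0.5), and the term called names an adjusted p under 0.05 in limma, a linear model fitted to all genes. The treatment left its mark on KLK3, which encodes prostate-specific antigen, with 1588 ± 209 CPM under R1881 (SD, n = 10) and 134 ± 7.66 CPM under R1881 + enzalutamide (SD, n = 5), and FKBP5 and TMPRSS2, both induced by androgens, had log2 fold changes of -4.99 and -3.56. Of 8 markers of prostate luminal epithelium all 8 had a row, and their summed level ranged from 7103 to 8274 CPM with R1881 and from 3601 to 3725 CPM with R1881 + enzalutamide. Of 12 markers of basal cells, stroma, leukocytes and endothelium only KRT14, COL1A1 and ACTA2 had a row, with a summed level of 8.80 to 13.2 CPM and 11.3 to 16.6 CPM. Deviations of a library from its group followed the GC content of the gene in several libraries of both groups, with rho by Spearman from -0.635 in R1881 library 52 to 0.740 in R1881 library 73 and 0.717 in R1881 + enzalutamide library 83 (across genes, which are not independent replicates).

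The promoters of PER1, PER3 and NR1D2, the genes with the smallest adjusted p, and of ARNTL, on which the REV-ERB receptors act, are shown first, since each holds a motif of a clock factor. Each window is the RefSeq sequence from 250 bases before to 50 bases after an annotated start site (GRCh38.p14), 5′ to 3′ on the strand of the gene. The window of PER1 lies on the minus strand at chr17:8152355-8152654, that of PER3 on the plus strand at chr1:7784041-7784340, that of NR1D2 on the plus strand at chr3:23945871-23946170 (the second of its start sites) and that of ARNTL on the plus strand at chr11:13277540-13277839. Capitals mark an E-box (CACGTG), a D-box (TTATGTAA or its reverse complement TTACATAA) or the core of a ROR element (TAGGTCA).
PER1: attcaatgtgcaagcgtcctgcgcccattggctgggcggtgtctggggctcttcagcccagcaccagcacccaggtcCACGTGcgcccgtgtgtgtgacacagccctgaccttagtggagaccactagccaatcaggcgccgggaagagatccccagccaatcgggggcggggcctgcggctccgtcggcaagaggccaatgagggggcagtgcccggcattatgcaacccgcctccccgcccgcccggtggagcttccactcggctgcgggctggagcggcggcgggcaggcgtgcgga
PER3: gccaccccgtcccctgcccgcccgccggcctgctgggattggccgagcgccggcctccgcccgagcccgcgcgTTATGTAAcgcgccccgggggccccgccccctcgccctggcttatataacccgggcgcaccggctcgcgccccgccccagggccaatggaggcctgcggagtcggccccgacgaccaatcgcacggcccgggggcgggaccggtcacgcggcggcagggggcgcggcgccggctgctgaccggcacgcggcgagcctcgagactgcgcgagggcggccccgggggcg
NR1D2: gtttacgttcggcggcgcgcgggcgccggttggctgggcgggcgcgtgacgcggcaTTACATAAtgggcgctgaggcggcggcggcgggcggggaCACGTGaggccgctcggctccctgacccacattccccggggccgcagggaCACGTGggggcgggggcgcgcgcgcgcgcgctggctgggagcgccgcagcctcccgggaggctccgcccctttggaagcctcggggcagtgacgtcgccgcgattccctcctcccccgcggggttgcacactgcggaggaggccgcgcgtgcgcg
ARNTL: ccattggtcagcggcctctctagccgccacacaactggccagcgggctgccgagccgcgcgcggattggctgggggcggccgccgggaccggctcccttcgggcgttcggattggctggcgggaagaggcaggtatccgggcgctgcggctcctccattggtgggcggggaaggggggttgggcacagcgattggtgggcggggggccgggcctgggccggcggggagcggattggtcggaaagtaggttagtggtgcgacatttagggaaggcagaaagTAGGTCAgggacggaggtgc

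In PER1 the match was an E-box whose first base lies at -173, counted from the start site. NR1D2 held an E-box at -155 and another at -105, with a D-box at -194. PER3 held a D-box at -177, and ARNTL the core of a ROR element at position 31 after its start site. Both strands were searched in the 15 windows of the 10 genes, and no match overlapped another. CACGTG was found in 2 of 15 windows and in 7.26% of all 35116 promoter windows of the table, and CACGTT, a variant of the E-box known as the E-prime box, in 5 of 15 windows and in 5.34% of all windows. These 5 were windows of PER2, CRY1, CRY2, NR1D1 and CLOCK. The D-box TTATGTAA was found in 2 of 15 windows and in 0.886% of all windows, and TTACGTAA, a further form of it, in PER2 at -3 and in 0.125% of all windows. The core TAGGTCA was found in ARNTL and CRY2 and in 1.85% of all windows. AGAACA, the core of sites bound by the androgen receptor, was found in none of the 15 windows and in 14.8% of all windows, and the cAMP response element TGACGTCA in none and in 1.85%. DBP held no match in its window. Some genes have several windows, which can share sequence. These letters are a description of the windows and not of binding.

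**Figure D1:**
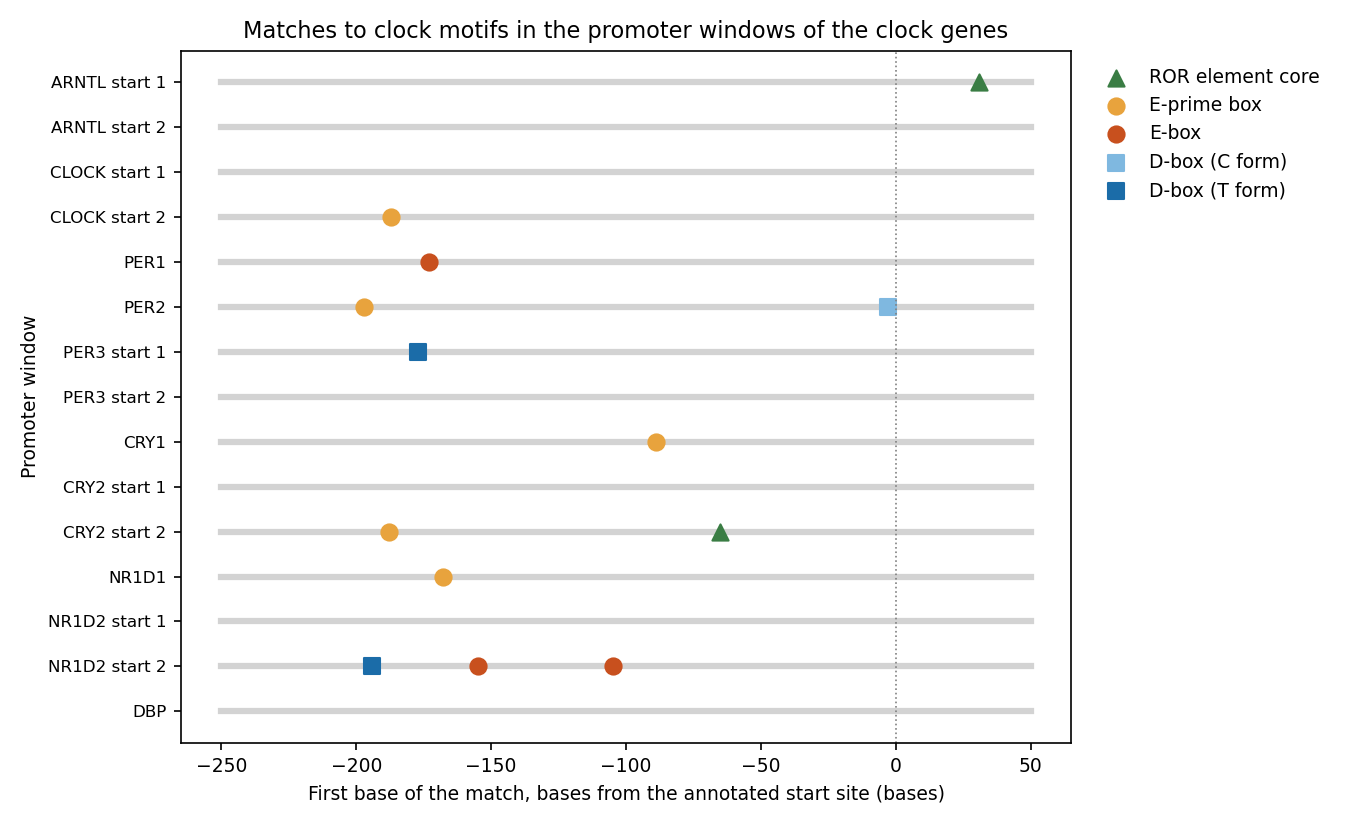
Position of motif matches in the 15 promoter windows of the 10 clock genes, as the distance in bases of the first base of the match from the annotated start site (dotted line). Each grey bar is a window from 250 bases before to 50 bases after a start, and the 2 E-boxes and the D-box of NR1D2 lie between -194 and -105.

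With enzalutamide PER1 fell by 71.3%, CRY1 fell by 24.4%, and NR1D2, PER3, NR1D1 and DBP rose, while ARNTL and CRY2 did not pass the test. Of the 10 genes 2 were lower and 6 were higher in R1881 + enzalutamide than in R1881 by limma (adjusted p under 0.05), where 32.7% of all 17046 genes tested were lower and 29.8% were higher. All libraries of the treatments lay apart for 2 genes that were lower and 3 that were higher, beside 20.1% and 17.1% of all genes tested (37.2% in either direction). Only PER1 was called and changed at least 2-fold, downward, as did 4.19% of all genes tested, and 7.45% did in either direction. The median log2 fold change was 0.21 over the 10 genes and -0.01 over all genes tested. A share of 8 in 10 genes called stands beside 62.5% of all genes, so the counts themselves set the clock genes little apart, and the sizes and directions of single genes carry the description. In bulk RNA, fewer cells that express a gene and less RNA per cell cannot be told apart, and with a single harvest time a changed level and a changed phase of a rhythm cannot be told apart either.

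**Figure D2:**
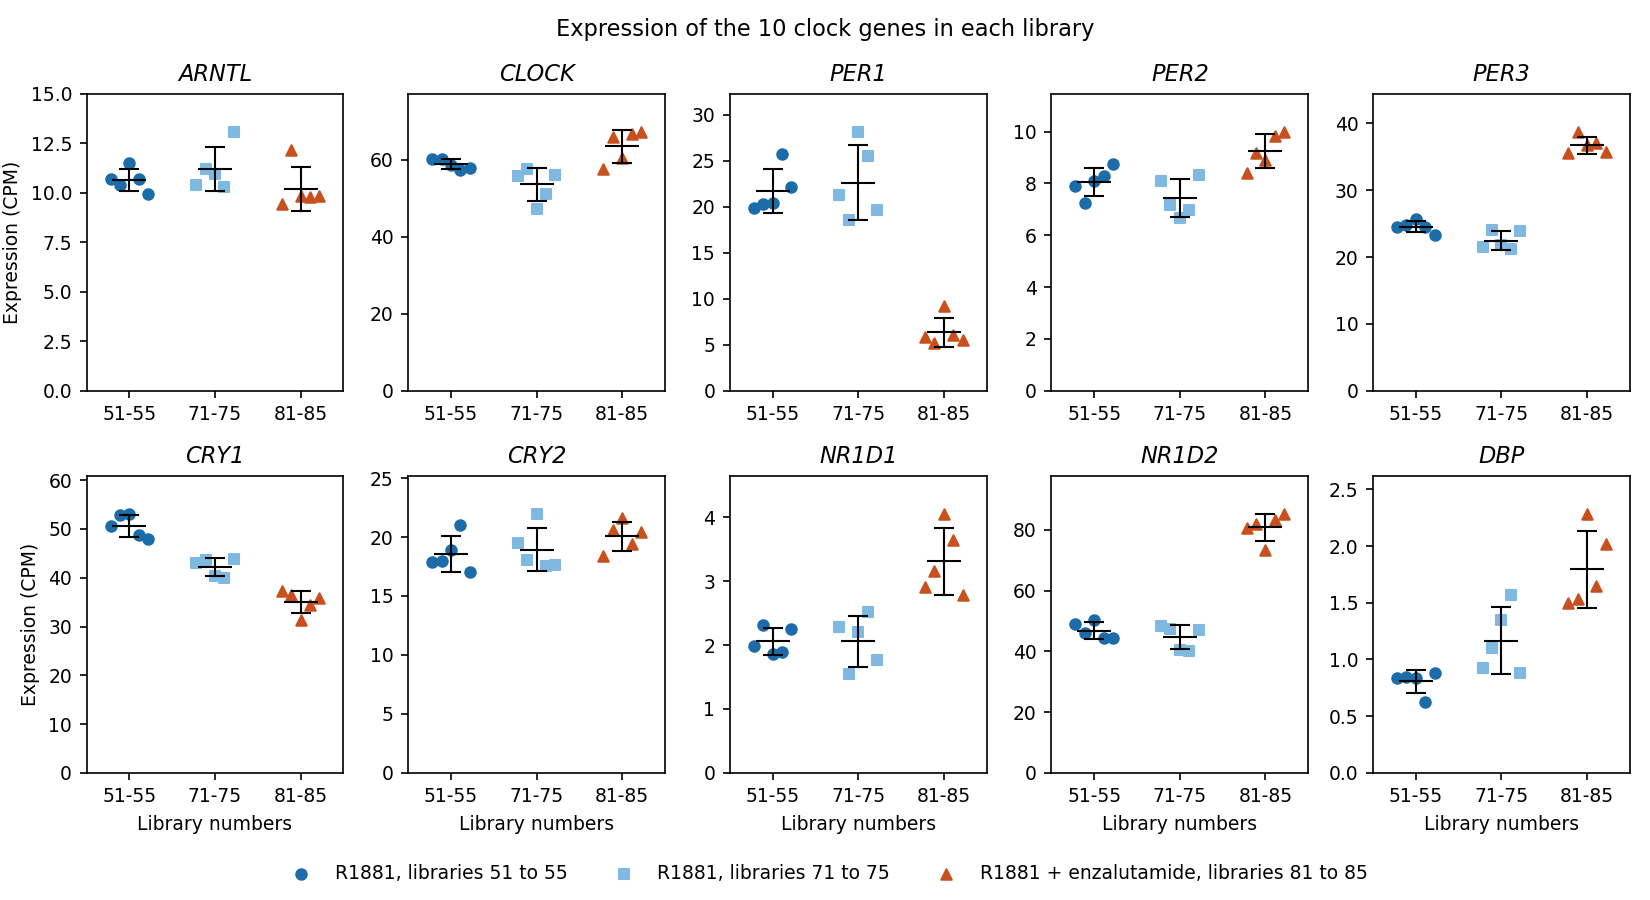
Expression of the 10 clock genes in CPM in each library, with a column for each of the series 51 to 55 (R1881), 71 to 75 (R1881) and 81 to 85 (R1881 + enzalutamide) (horizontal mark and bar: mean ± SD, n = 5 each). PER1 and CRY1 lie below both R1881 columns with enzalutamide, and PER3, NR1D1 and NR1D2 lie above them.

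PER1 encodes a repressor of ARNTL and CLOCK and responds quickly to hormonal and cAMP signals. It has 23 exons on the minus strand of chr17:8140472-8156506 (GRCh38, GENCODE v44, as for all positions of genes given here). In the R1881 libraries PER1 ranged from 18.6 to 28.1 CPM with a median of 20.8 CPM. In the R1881 + enzalutamide libraries 81 to 85 it was 5.82, 5.21, 9.16, 6.04 and 5.52 CPM. The groups lay far apart, since the lowest R1881 library held about 2 times the level of the highest R1881 + enzalutamide library, which was library 83. The mean of PER1 was 22.1 ± 3.18 CPM under R1881 (SD, n = 10) and 6.35 ± 1.60 CPM under R1881 + enzalutamide (SD, n = 5). The log2 fold change was -1.74 (SE 0.11, limma adjusted p = 1.62e-11), and only 1.53% of all genes tested had a lower value. A two-sided exact permutation test over the 3003 ways to regroup the libraries returned p = 0.000333, which no other split could go below. Once each library was corrected for its trend on GC content, an alternative chosen after seeing the data, library 83 was at 7.87 CPM, the other R1881 + enzalutamide libraries at 5.95 to 6.33 CPM, and the log2 fold change at -1.67.

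PER2 (minus strand, chr2:238244044-238290102) and PER3 (plus strand, chr1:7784291-7845177), the other members of the family, did not follow PER1. PER3 ranged from 21.2 to 25.6 CPM with R1881 (median 24.0 CPM) and was 35.5, 38.7, 36.7, 37.1 and 35.8 CPM in the R1881 + enzalutamide libraries 81 to 85. Every R1881 + enzalutamide library thus lay above every R1881 library. The mean of PER3 was 23.5 ± 1.52 CPM (SD, n = 10) with R1881 and 36.8 ± 1.26 CPM (SD, n = 5) with R1881 + enzalutamide, a log2 fold change of 0.64 (SE 0.050, limma adjusted p = 4.49e-10). PER3 shares 868 exon bases with UTS2 on the opposite strand, which was not analysed here, and the annotation also names a processed pseudogene, PER3P1, so that part of its reads may be uncertain. PER2 encodes the PER protein on which the mammalian clock most depends. It ranged from 6.66 to 8.73 CPM with R1881 (median 7.99 CPM) and was 8.41, 9.17, 8.88, 9.84 and 9.97 CPM with R1881 + enzalutamide. Library 81 alone lay within the R1881 range, and the log2 fold change of PER2 was 0.24 (SE 0.070, limma adjusted p = 0.00470). The ratio of PER1 to PER3 within a library, which does not depend on the scaling of library sizes, was 0.772 to 1.29 with R1881 (median 0.885) and 0.135 to 0.249 with R1881 + enzalutamide (median 0.163). That of PER1 to PER2 had a median of 2.61 with R1881 and 0.614 with R1881 + enzalutamide.

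CRY1 (minus strand, chr12:106991364-107093549) and CRY2 (plus strand, chr11:45847118-45883248) encode the cryptochromes, which repress ARNTL and CLOCK together with the PER proteins. CRY1 ranged from 40.0 to 53.0 CPM with R1881 (median 45.9 CPM) and was 37.3, 36.4, 31.4, 34.4 and 35.8 CPM in the R1881 + enzalutamide libraries 81 to 85. The groups did not overlap, but the gap between them was narrow. The log2 fold change of CRY1 was -0.39 (SE 0.067, limma adjusted p = 3.24e-05). Its size rested on the R1881 series, as it was -0.53 against the libraries 51 to 55 alone and -0.26 against the libraries 71 to 75 alone. CRY2 ranged from 17.0 to 21.9 CPM with R1881 (median 18.0 CPM) and was 18.4, 20.6, 21.6, 19.4 and 20.4 CPM with R1881 + enzalutamide, all within the R1881 range. Its log2 fold change was 0.10 (95% confidence interval -0.03 to 0.23, limma adjusted p = 0.167). CRY2 was called higher with each library scaled to a total of 1000000 (0.19, limma adjusted p = 0.0102) and with the trend on GC content removed (0.17, limma adjusted p = 0.00486). The ratio of CRY1 to CRY2 was 1.84 to 2.95 with R1881 and 1.45 to 2.03 with R1881 + enzalutamide, and these ranges overlapped.

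NR1D1 (minus strand, chr17:40092793-40100589) and NR1D2 (plus strand, chr3:23945286-23980617) encode the REV-ERB receptors, repressors that bind heme and act on ARNTL. NR1D2 ranged from 40.1 to 50.3 CPM with R1881 (median 46.4 CPM) and was 80.6, 81.8, 73.4, 83.2 and 85.1 CPM in the R1881 + enzalutamide libraries 81 to 85. Every R1881 + enzalutamide library lay well above the R1881 libraries. The mean rose by 76.7%, with a log2 fold change of 0.82 (SE 0.053, limma adjusted p = 2.13e-11), and 5.09% of all genes tested had a higher value. NR1D1 was at a much lower count, with 26 to 52 reads per library with R1881 and 62 to 93 reads with R1881 + enzalutamide. It ranged from 1.55 to 2.52 CPM with R1881 (median 2.10 CPM) and was 2.91, 3.17, 4.05, 3.65 and 2.78 CPM with R1881 + enzalutamide, again without overlap. The log2 fold change of NR1D1 was 0.57 (SE 0.10, limma adjusted p = 5.86e-05). The bounds of NR1D2 overlap those of NKIRAS1, on the opposite strand, without shared exon bases, and the log2 fold change of NKIRAS1 was -0.48 (limma adjusted p = 2.19e-07). The 3′ ends of NR1D1 and THRA, the gene of a thyroid hormone receptor, overlap on opposite strands of chromosome 17 with 473 exon bases in common. THRA also rose, with 27.7 ± 2.28 CPM under R1881 (SD, n = 10) and 35.0 ± 2.73 CPM under R1881 + enzalutamide (SD, n = 5) and a log2 fold change of 0.33 (limma adjusted p = 7.14e-05). Whether strand was used to count reads is not stated, so reads of the shared bases cannot be assigned to NR1D1 or THRA, and the part of THRA in the rise of NR1D1 was not tested. The ratio of NR1D1 to THRA was 0.0584 to 0.0940 with R1881 and 0.0799 to 0.105 with R1881 + enzalutamide, so that these ranges overlapped.

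ARNTL (plus strand, chr11:13276652-13387266) and CLOCK (minus strand, chr4:55427903-55546909) encode the pair of activators on which the loop rests. ARNTL ranged from 9.92 to 13.1 CPM with R1881 (median 10.7 CPM) and was 9.42, 12.1, 9.81, 9.76 and 9.84 CPM in the R1881 + enzalutamide libraries 81 to 85. On the deposited scaling, all R1881 + enzalutamide libraries except library 82 thus lay just below the R1881 range. The log2 fold change of ARNTL was -0.10 (95% confidence interval -0.24 to 0.05, limma adjusted p = 0.238), and without library 82 it was -0.16 (limma adjusted p = 0.0490). With each library scaled to a total of 1000000, the log2 fold change of ARNTL was -0.006 (limma adjusted p = 0.942). CLOCK ranged from 47.4 to 60.3 CPM with R1881 (median 57.6 CPM) and was 57.6, 65.9, 60.4, 66.7 and 67.2 CPM with R1881 + enzalutamide. Library 81 lay within the R1881 range and the other R1881 + enzalutamide libraries above it. CLOCK had a log2 fold change of 0.17 (SE 0.054, limma adjusted p = 0.00841), which was 0.11 and did not pass the test against the R1881 libraries 51 to 55 alone (limma adjusted p = 0.0624). CLOCK shares 76 exon bases with TMEM165 on the opposite strand, whose log2 fold change was -0.20 (limma adjusted p = 0.000294), opposite in sign to that of CLOCK. A Y_RNA copy lies within CLOCK without shared exon bases, and since many genes share that symbol its row gives no value here. The ratio of NR1D2 to ARNTL within a library rose from a median of 4.30 (range 3.59 to 4.64) with R1881 to 8.52 (range 6.74 to 8.65) with R1881 + enzalutamide, and that of NR1D1 to ARNTL from a median of 0.194 to 0.309.

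DBP (minus strand, chr19:48630030-48637379) encodes a PAR bZIP factor that activates D-box genes and is among the outputs of the clock with the widest swing in many tissues. It was the least expressed member, with 13 to 30 reads per library with R1881 and 33 to 49 reads with R1881 + enzalutamide. DBP ranged from 0.629 to 1.57 CPM with R1881 (median 0.881 CPM) and was 1.50, 1.54, 2.28, 1.65 and 2.02 CPM with R1881 + enzalutamide. The R1881 library 74 alone reached into the R1881 + enzalutamide range. The log2 fold change of DBP was 0.64 (SE 0.13, limma adjusted p = 0.000227), and it was 0.80 against the R1881 libraries 51 to 55 and 0.47 against the R1881 libraries 71 to 75. On chromosome 19 DBP shares 661 exon bases with SPHK2, a sphingosine kinase gene on the opposite strand. SPHK2 had a log2 fold change of -0.28 (limma adjusted p = 0.0901), and the ratio of DBP to SPHK2 was 0.0516 to 0.113 with R1881 and 0.151 to 0.236 with R1881 + enzalutamide, without overlap.

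**Figure D3:**
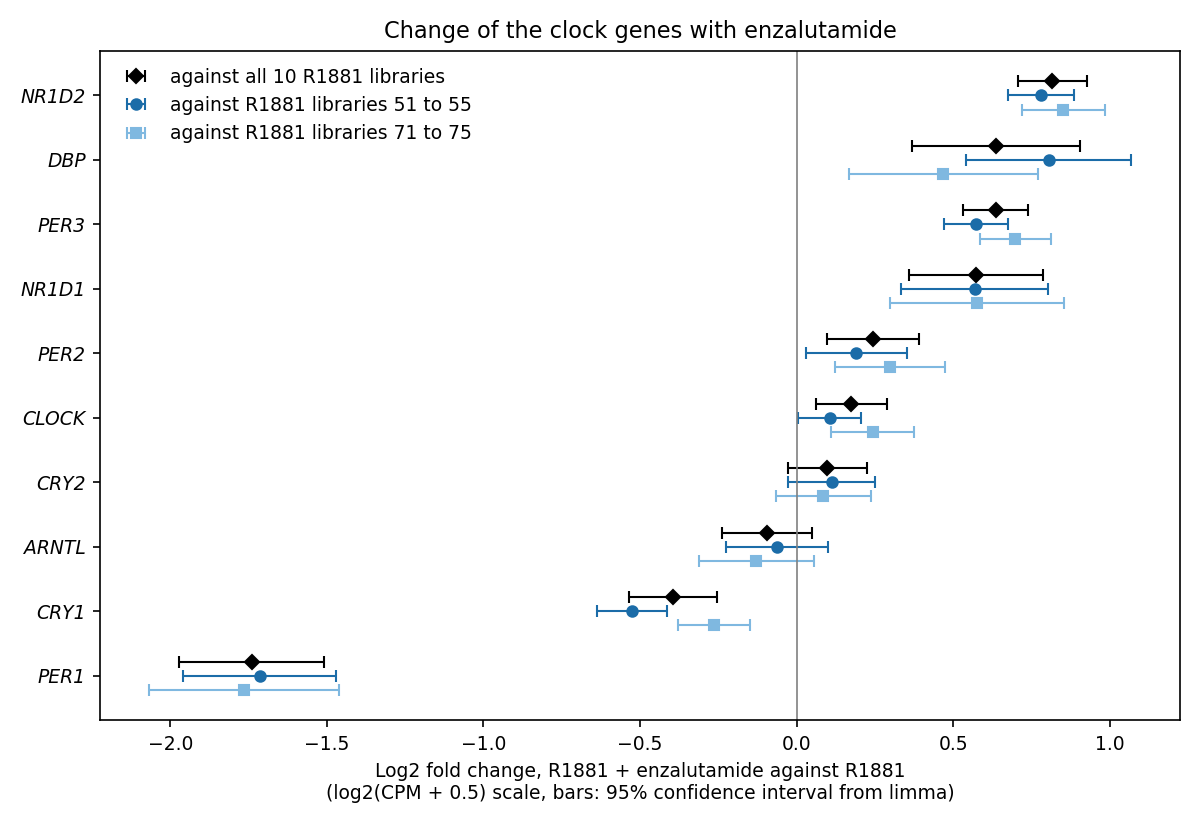
Log2 fold change of each clock gene on the log2(CPM + 0.5) scale, R1881 + enzalutamide against all 10 R1881 libraries, against libraries 51 to 55 and against libraries 71 to 75 (points; bars are 95% confidence intervals from limma). PER1 stands apart at -1.74, and CRY1 and DBP differ most between the R1881 series used for comparison.

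The R1881 libraries also allow the spread between their own number series to be measured at the same treatment. Of the 10 clock genes only CRY1 was called between the libraries 71 to 75 and 51 to 55 by limma, as were 3.17% of all genes tested. DBP had a larger log2 difference, at 0.34 (SE 0.14, limma adjusted p = 0.156), but was not called. CRY1 was at 50.6 ± 2.32 CPM in the libraries 51 to 55 (SD, n = 5) and at 42.1 ± 1.84 CPM in the libraries 71 to 75 (SD, n = 5), and it was the only clock gene without overlap, as were 6.67% of all genes tested. The log2 difference was -0.26 (SE 0.047, limma adjusted p = 0.0131), beside -0.39 between the treatments. The call was lost without R1881 library 51, 52 or 53 (limma adjusted p = 0.0531, 0.0555 and 0.0518), while the difference stayed at -0.26, -0.25 and -0.24. With the trend on GC content removed CRY1 differed by -0.18 (limma adjusted p = 0.00142). Other genes moved between the R1881 series as well. Of the androgen targets KLK3 was higher in the libraries 71 to 75 by 0.35 on the log2 scale (limma adjusted p = 0.000209) and TMPRSS2 by 0.16 (limma adjusted p = 0.0126). The proliferation markers MKI67, TOP2A, PCNA and CCNB1 were lower there, with log2 differences of -0.30, -0.28, -0.15 and -0.21, each called by limma, while FKBP5 and MCM2 were not called. Their part in the difference of CRY1 was not tested. PER1 was at 21.7 ± 2.40 CPM in the libraries 51 to 55 (SD, n = 5). In the libraries 71 to 75 it was at 22.6 ± 4.05 CPM (SD, n = 5). This difference between the R1881 series was small beside the difference between the treatments. The number series of the R1881 + enzalutamide libraries holds no R1881 library. A shift of PER1 that belongs to that series was therefore not tested.

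Levels of different genes were compared per kb of annotated exon (union of exons, GENCODE v44), which assumes that all annotated exons are transcribed. With R1881, CRY1 was highest at 9.70 ± 1.02 CPM per kb (SD, n = 10), followed by NR1D2 at 7.89 ± 0.589 CPM per kb, and the ranges of these genes overlapped. CLOCK came next at 4.88 ± 0.354 CPM per kb. PER1, CRY2 and PER3 lay close together at 3.16, 3.02 and 2.89 CPM per kb, and each overlapped with its neighbour. Below them were ARNTL at 1.57, PER2 at 1.09, NR1D1 at 0.783 and DBP at 0.152 CPM per kb, where PER2 and NR1D1 overlapped. With R1881 + enzalutamide NR1D2 was highest at 13.9 ± 0.775 CPM per kb (SD, n = 5) and CRY1 followed at 7.33 ± 0.481 CPM per kb, now without overlap. PER3 lay above CRY2, at 4.52 against 3.24 CPM per kb. PER1 had moved from place 4 to place 9 in this order, at 0.907 ± 0.229 CPM per kb, where it overlapped with NR1D1 but not with DBP.

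**Figure D4:**
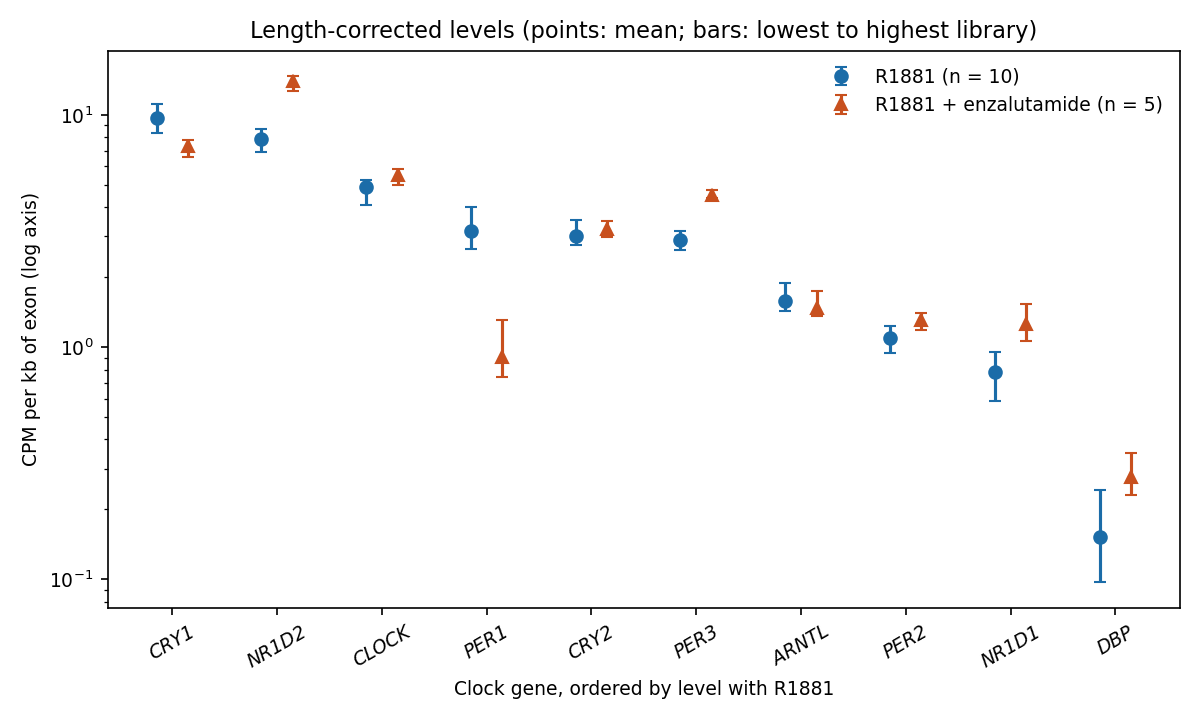
Levels of the clock genes in CPM per kb of exon on a log axis, ordered by their level with R1881 (points are means, bars run from the lowest to the highest library, n = 10 and n = 5). PER1 drops from 3.16 to 0.907 CPM per kb with enzalutamide and NR1D2 rises from 7.89 to 13.9 CPM per kb.

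Genes that act on the clock or under it were taken from 7 lists. Of their 45 genes, 42 had values. By limma 12 were lower with R1881 + enzalutamide, 16 were higher and 14 were not called. Of all genes tested 32.7% were lower and 29.8% were higher. The median log2 fold change of the 42 genes was 0.06, beside -0.01 for all genes tested.

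Among other repressors, 2 of 4 genes were lower and 2 were higher, beside 32.7% and 29.8% of all genes tested. BHLHE40, which encodes the E-box repressor DEC1, fell from a mean of 12.6 ± 0.730 CPM under R1881 (SD, n = 10) to 6.48 ± 0.524 CPM under R1881 + enzalutamide (SD, n = 5), with a log2 fold change of -0.91 (limma adjusted p = 3.34e-11). CIART, whose protein represses ARNTL and CLOCK, rose from 3.98 ± 0.458 to 7.08 ± 0.676 CPM, a log2 fold change of 0.76 (limma adjusted p = 1.10e-07). TIMELESS, named here after its values were seen, acts mainly at replication forks in mammals, and its log2 fold change was -0.59 (limma adjusted p = 2.08e-11). The proliferation markers MKI67, TOP2A, MCM2, PCNA and CCNB1 were all lower too, with a summed level of 538 to 653 CPM with R1881 and 308 to 348 CPM with R1881 + enzalutamide, and their part in the values of the clock genes was not tested.

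Both other PAR bZIP factors were higher, as was DBP, where 29.8% of all genes tested were higher. TEF had 15.7 ± 0.914 CPM under R1881 (SD, n = 10) and 22.2 ± 1.43 CPM under R1881 + enzalutamide (SD, n = 5), with a log2 fold change of 0.49, and HLF had a log2 fold change of 0.44 (limma adjusted p = 9.54e-08 and 0.000131). Among the activator paralogues and ROR receptors, 2 of 4 genes were higher and none was lower, beside 29.8% and 32.7% of all genes tested. The lowest was ARNTL2, a paralogue of ARNTL, at -0.04 (limma adjusted p = 0.676).

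Of the kinases and ubiquitin ligase parts that act on PER and CRY proteins 3 of 9 were lower, which is near the 32.7% of all genes, and none was higher. The lowest was CSNK1A1, the gene of casein kinase 1α, with a log2 fold change of -0.53 (limma adjusted p = 4.34e-11). CSNK1E, the highest of the list, did not pass the test at 0.14 (limma adjusted p = 0.0584). Of 9 cofactors 4 were lower and 4 were higher (32.7% and 29.8% of all genes), from WDR5 at -0.32 to KMT2A at 0.29, both of which belong to histone methyltransferase complexes.

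All 8 clock-controlled output genes were called, 3 lower and 5 higher, where 62.5% of all genes tested were called. NAMPT, which makes a precursor of NAD, was lowest, with 255 ± 17.9 CPM under R1881 (SD, n = 10) and 186 ± 7.66 CPM under R1881 + enzalutamide (SD, n = 5) and a log2 fold change of -0.45 (limma adjusted p = 2.59e-08). USP2, the gene of a ubiquitin protease, was highest at 0.61 (limma adjusted p = 3.78e-06). WEE1, which encodes a kinase that holds back mitosis and was named after its values were seen, rose by 0.50 on the log2 scale (limma adjusted p = 3.13e-07), opposite to the proliferation markers. Of 6 genes of cAMP input 1 was higher and none was lower, beside 29.8% and 32.7% of all genes tested. The higher gene was SIK1, a kinase gene induced by cAMP, at 0.32 (limma adjusted p = 0.000328). CREM, the lowest, was at -0.07 (limma adjusted p = 0.261).

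**Figure D5:**
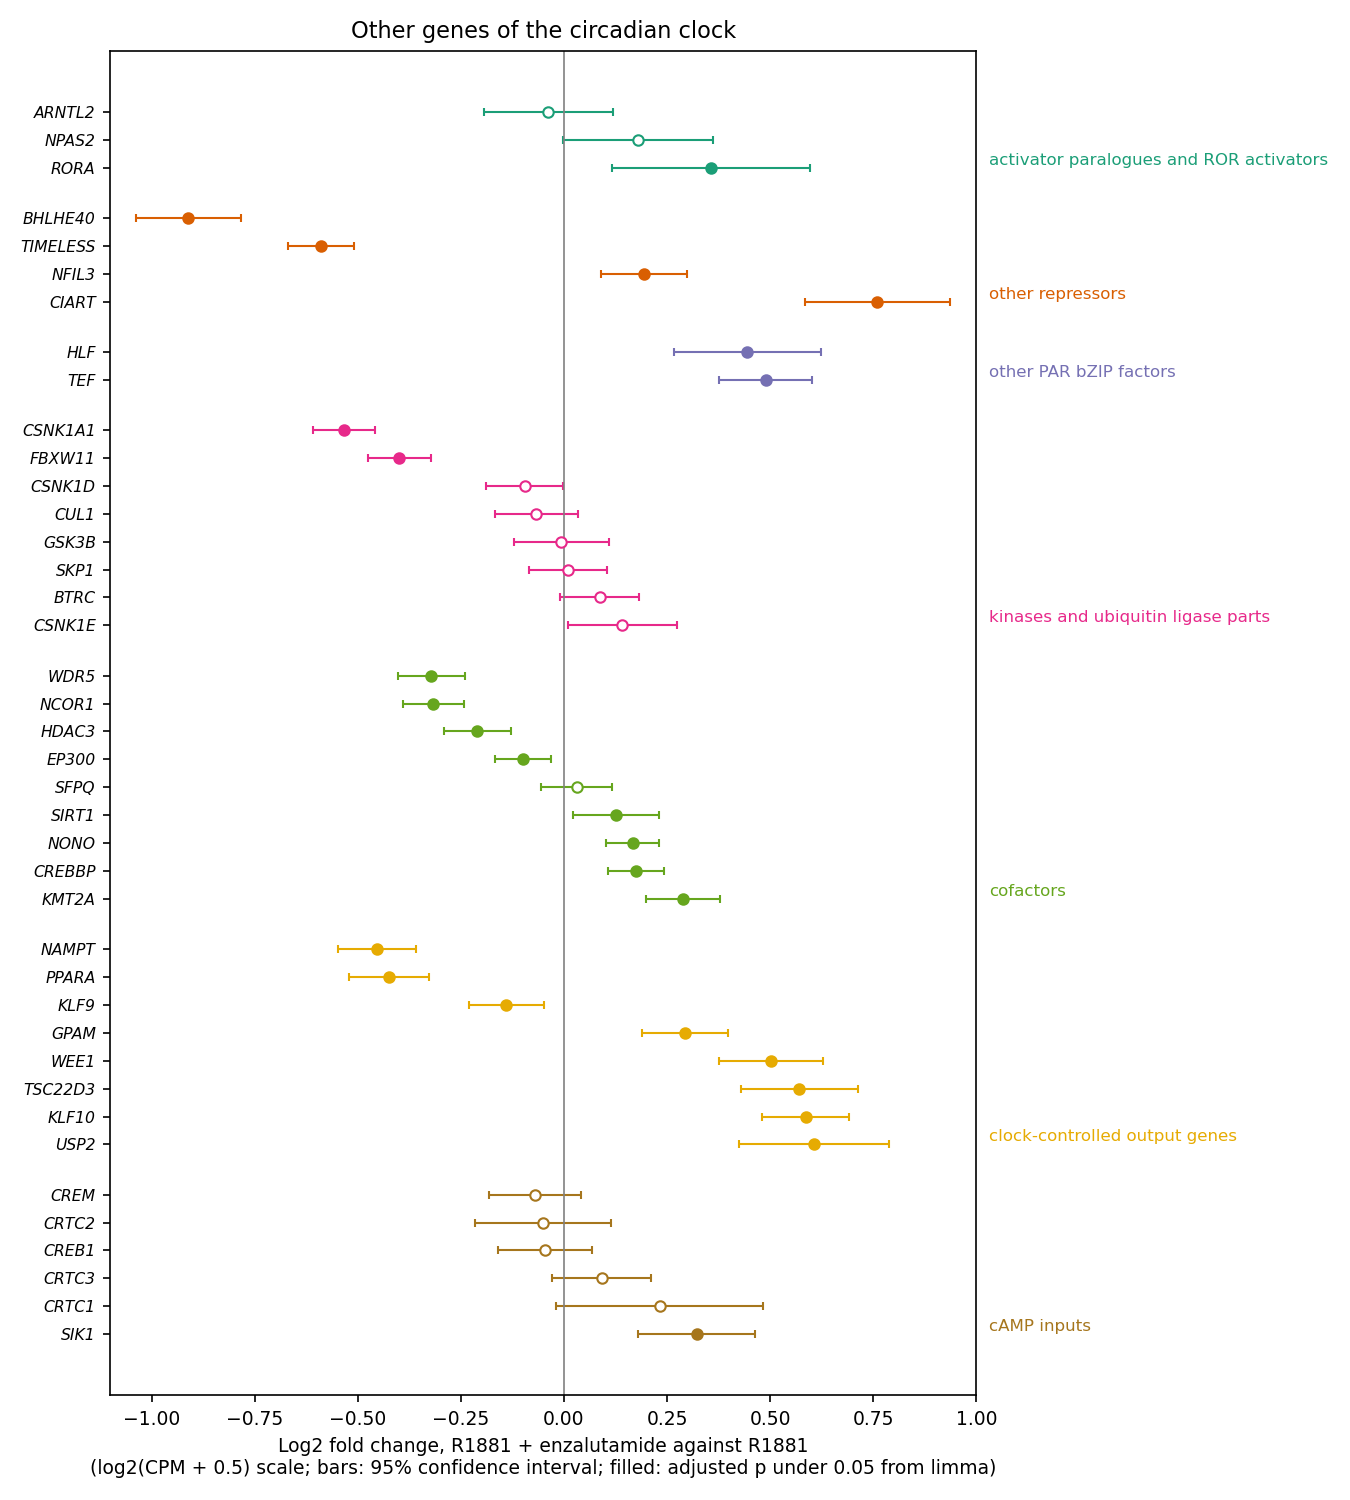
Log2 fold change on the log2(CPM + 0.5) scale, R1881 + enzalutamide against R1881, of genes of the 7 other lists, ordered within each list (bars are 95% confidence intervals, filled points passed an adjusted p of 0.05 from limma). BHLHE40 at -0.91 and CIART at 0.76 mark the ends.

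The clock genes were also set beside all genes with a mean of at least 5 CPM by the root mean square distance between log2 profiles over the 15 libraries, each centred on its own mean. The genes nearest to PER1 were the pseudogene CPSF1P1 (distance 0.13), KLHL29 (0.14) and WNT7B (0.17), with log2 fold changes of -1.78, -1.78 and -1.56. Nearest to NR1D2 were SLC9A7 (0.05), KDM6A (0.05) and BLOC1S6 (0.05), and nearest to DBP were RP11-458F8.4 (0.13), MAP3K12 (0.15) and HIST3H2A (0.16). Within the 10 clock genes the closest profiles were those of CLOCK and PER2 (0.09) and of PER3 and NR1D2 (0.12). The difference between the groups sets most of such a distance, and the libraries are shared by all genes.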

How the data were processed

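Polyadenylated RNA of LNCaP cells was sequenced by the authors as single-end reads from a stranded kit, demultiplexed with bcl2fastq 2.17, mapped with STAR (GRCh38) and assigned to genes by featureCounts. What the authors deposited is a normalized signal for each gene and library, named CPM in the methods, with rescaled library sizes. Columns sum to between 1053406 and 1078567 with R1881 and to between 985580 and 1008992 with R1881 + enzalutamide. Each value (100%) could be divided by that of a single read to give a whole number within 0.01 reads, so read counts were recovered. Differences were tested with limma 3.58.1 in R 4.3.3 on log2(CPM + 0.5) with a mean-variance trend, a mean CPM of at least 0.5 (17046 genes), treatment as the only term and Benjamini-Hochberg adjustment over all genes tested. The design had been fixed for normalized values, and edgeR 4.0.16 and DESeq2 1.42.0 on the recovered counts were alternatives. Fold changes on this scale understate changes of genes with few reads. Nothing in the labels ties libraries to separate cultures, while the methods call them biological replicates. All 55 pairs of libraries within a treatment differed beyond sampling noise (lowest chi-square over its degrees of freedom 1.63).

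The members and lists were chosen with earlier results of these data known, so the lists are not independent evidence. Named genes were the 10 members, the highest and lowest of each list, genes of the table overlapping a member, treatment and proliferation markers, and the 3 nearest profiles of the 3 members with the largest change, and exceptions are marked. RORB, BHLHE41 and FBXL21P were not analysed here. Single values of some list genes are not reported here, though their lists' counts include them. Symbols were matched to GENCODE v44 through RefSeq synonyms, and 85.8% of genes had a GC content. The number of libraries limits the precision, as does counting error for DBP and NR1D1. The test was also run on simulated reads, and the outcome is not reported here.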

Additional observations from a re-analysis of the deposited data

Results flagged for a closer look

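In R1881 + enzalutamide library 83 PER1 was at 9.16 CPM, while the other libraries of this treatment lay between 5.21 and 6.04 CPM. This library also followed the GC content of genes, and with that trend removed it still lay apart at 7.87 CPM. ARNTL was at 12.1 CPM in R1881 + enzalutamide library 82, against 9.42 to 9.84 CPM in the other libraries of this treatment, and at 13.1 CPM in R1881 library 75, where the next library held 11.5 CPM. With the trend on GC content removed neither ARNTL library passed Dixon's criterion, while CLOCK in R1881 + enzalutamide library 81 then did (57.8 CPM against 64.5 to 66.6 CPM in the others, gap over range 0.767). Over 20 groups of 5 or 10 libraries, 3 had such a library by Dixon's criterion, where chance gives about 1.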

How the results depend on the processing

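Of 414 values recomputed under the alternatives or without single libraries, 404 were kept. A log2 fold change was kept when its direction and its side of the threshold stayed. A count of genes called was kept when it stayed near the main count, which is a looser rule. For the log2 fold changes the alternatives covered the pseudocount, the filter, the scaling, edgeR, DESeq2 and both replicate blocks. They also covered each R1881 series alone and removal of the trend on GC content, the last chosen after seeing the data. The log2 fold change of PER1 stayed between -1.80 and -1.65 under these and between -1.87 and -1.68 when single libraries were left out, that of NR1D2 between 0.78 and 0.91 and between 0.80 and 0.85, and that of PER3 between 0.57 and 0.73 and between 0.62 and 0.65. The alternatives moved DBP (0.47 to 0.91, the highest by edgeR), NR1D1 (0.49 to 0.73, the highest by edgeR) and CRY1 (-0.53 to -0.26) more. With a change of at least 2-fold required, 1 member was lower and 0 were higher, while 6 were called higher by limma without that requirement. CRY2 was called with each library scaled to a total of 1000000 (0.19) and with the trend on GC content removed (0.17). CLOCK was not called against the R1881 libraries 51 to 55 alone (0.11). Leaving out single libraries, the log2 fold change of ARNTL ranged from -0.16 to -0.067, being called only without R1881 + enzalutamide library 82, members called lower from 2 to 3, and members called between the R1881 series from 0 to 1. The causes were not tested. With each library scaled to a total of 1000000, 4288 of all genes were lower and 6629 higher, against 5577 and 5083. Between the R1881 series 541 genes were called, 965 by DESeq2, 902 with the trend on GC content removed, 210 with the replicate block by last digit, and 55 to 964 without single libraries. Replicate numbers in the sample titles did not pair the libraries (correlation of deviations -0.07 to 0.07). For the last digit of the library numbers the correlations were mixed (-0.22 to 0.62) and do not settle whether it pairs the libraries. With the replicate block by title number PER2 was not called (0.19, limma adjusted p = 0.0797), and with the block by last digit no member changed its call. Depth limits DBP and NR1D1 most.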
